A study of Medicago sativa with 24 samples.

Results

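S29-4x and S60-4x are tetraploid full sibs of alfalfa (Medicago sativa), and the transcription of their leaves was compared here and set against that of their parents. The members are the 3 arrays of S29-4x and the 3 arrays of S60-4x, chosen by the genotype in the sample labels, of 24 arrays of 8 genotypes in all. S29-4x and S60-4x came from the diploid seed parent PG-F9, of subspecies falcata, which forms unreduced eggs, and the diploid pollen parent 12P, of coerulea and falcata ancestry, which forms unreduced pollen. The other genotypes were the tetraploid sib S48-4x and the diploid sibs S8-2x, S16-2x and S24-2x, with 3 arrays each. The labels name no transgene and no treatment. Young, fully expanded leaves were taken at the vegetative stage, and each array held the RNA of a bulk of a pair of plants cloned from cuttings, so that each genotype is a single clone and the p-values measure the spread among bulks of that clone.

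Tetraploids of this kind arise by bilateral sexual polyploidization, the union of an unreduced egg and an unreduced pollen grain, and hold a pair of chromosome sets from each parent. An unreduced gamete carries over part of the heterozygosity of its parent, and the gametes of an outcrossing plant differ in the alleles they carry. Full sibs can therefore differ both in which parental alleles they hold and in the dosage of each. The intensity of a gene on these arrays was read with probes designed on the sequence of the relative M. truncatula, so that the level of a transcript and the match of its M. sativa alleles to the probes enter the same value and cannot be told apart. Nor can fewer cells of a type and less RNA per cell be told apart in bulked leaves.

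Differences are given as S29-4x minus S60-4x and as PG-F9 minus 12P on the log2 scale of the normalized intensity, and a gene was called where its limma adjusted p was under 0.05 and its log2 difference over 1 in size. All 41527 genes were tested in each comparison. Array medians ran from 499.3 to 527.7 in intensity over the 24 arrays, and 66% to 79.1% of the genes on an array exceeded its brightest negative control. Of 8 leaf genes used to check the tissue, 6 (5 genes of chlorophyll a/b binding proteins and the gene of photosystem I reaction center subunit II) lay at or above percentile 81.4 of every S29-4x and S60-4x array. A sixth chlorophyll a/b binding gene, TC183902, lay as low as percentile 28 of an array of these sibs, and the Rubisco small chain TC198142 as low as percentile 35.9. None of the 8 was called between S29-4x and S60-4x, with differences between -0.56 and 0.98.

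One S29-4x array lay nearer to S60-4x than its mates did. S29-4x replicate 3 had a mean correlation of 0.991 with the other S29-4x arrays and of 0.990 with the S60-4x arrays. S29-4x replicates 1 and 2 had correlations of 0.984 and 0.985 with the S60-4x arrays. Their mean correlations with the other S29-4x arrays were 0.9900 and 0.9904, so that replicate 3 was no less like its own genotype. The S60-4x arrays correlated with each other at 0.994 to 0.995. A fit without S29-4x replicate 3 called 473 genes higher in S60-4x, and over these the replicate lay above the mean of S29-4x replicates 1 and 2 by a median of 0.60, towards S60-4x in 424 genes and by over 1 in 108. Over the 364 genes called higher in S29-4x in the same fit it lay lower by a median of 0.26 (log2 -0.26), towards S60-4x in 288 genes and by over 1 in 14. S29-4x replicates 1 and 2 differed from each other by a median of 0.00 and 0.03 in these sets. The genes were called without the replicate, so that its own values had no part in their choice. The choice favours genes in which replicates 1 and 2 lay close together and far from S60-4x. Some shift of a left-out array towards the other sib is therefore given, and the small differences between replicates 1 and 2 are no fair measure beside it. Left out in the same way, the other arrays of both sibs had median shifts from their mates between -0.16 and 0.13. The main counts are given with and without this array, and its part in them was not tested otherwise.

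**Figure D1:**
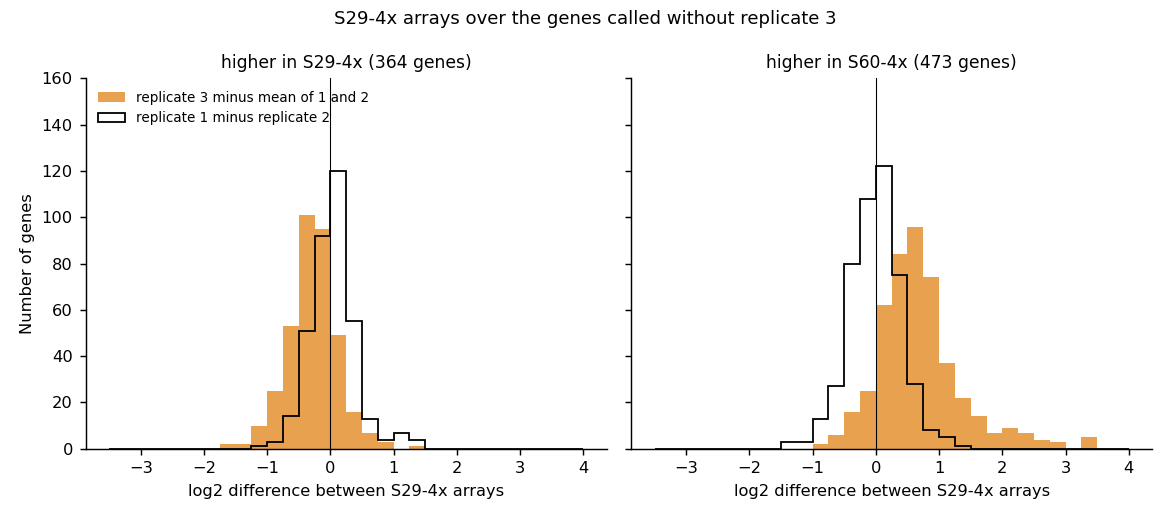
Number of genes (y axis) by the log2 difference between S29-4x arrays (x axis), over the genes called between S29-4x and S60-4x without S29-4x replicate 3; filled bars are replicate 3 minus the mean of replicates 1 and 2, the outline is replicate 1 minus replicate 2. Replicate 3 lay towards S60-4x in 288 of the 364 genes higher in S29-4x (left) and in 424 of the 473 genes higher in S60-4x (right).

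Between S29-4x and S60-4x, 639 genes (1.54% of those tested) were called, 330 higher in S29-4x (0.795%) and 309 higher in S60-4x (0.744%). In all 639 the arrays of S29-4x and S60-4x did not overlap, which was so for 26.1% of all genes. The pair was singled out because it is the closest among the tetraploids: 1311 genes (3.16%) were called between S29-4x and S48-4x and 1344 (3.24%) between S48-4x and S60-4x. The median absolute difference was 0.175 over all genes and 1.38 over the called ones. The difference exceeded 2 in size in 117 genes, 80 higher in S29-4x and 37 higher in S60-4x, and exceeded 4 in 15 genes, 13 higher in S29-4x and 2 higher in S60-4x. Without S29-4x replicate 3 the calls numbered 837, 364 higher in S29-4x and 473 higher in S60-4x, and 543 of the 639 genes were among them in the same direction. The excess of large differences on the S29-4x side was not kept in that fit, where 84 genes with a difference over 2 were higher in S29-4x and 95 in S60-4x. Leaving out a single S60-4x array left between 261 and 347 calls. A single fit of all 24 arrays, in which the 8 genotypes share 1 estimate of the spread, called 771 genes, 357 higher in S29-4x and 414 higher in S60-4x, so that the side with more calls changed with the arrays fitted.

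The parents differed at 4597 genes (11.1%), of which 2197 (5.29%) were higher in PG-F9 and 2400 (5.78%) were higher in 12P. Of the 639 genes called between S29-4x and S60-4x, 353 (55.2%) were also called between PG-F9 and 12P, and these were 7.68% of the genes called between the parents. The parental share was 55.8% among the genes higher in S29-4x and 54.7% among those higher in S60-4x. The parents were called in 95 of the 117 genes with a sib difference over 2 and in 13 of the 15 with a sib difference over 4. Without S29-4x replicate 3, 421 of 837 genes (50.3%) were also called between the parents.

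Genes called in both comparisons ran in both directions. Of the 353 genes called in both comparisons, 168 ran the same way (higher in S29-4x and PG-F9, or higher in S60-4x and 12P) and 185 the opposite way. Genes higher in S29-4x had their higher parent in PG-F9 in 76 cases and in 12P in 108, and genes higher in S60-4x had it in PG-F9 in 77 cases and in 12P in 92. Across all 41527 genes the differences between the sibs and between the parents had a Pearson correlation of -0.09 and the same sign in 48.5%, as a description over genes, which are not replicates. These comparisons share no array. Among genes called in both, the median size of the difference was 1.54 between the sibs and 2.1 between the parents where they ran the same way, and 1.54 and 2.14 where they ran opposite ways. Without S29-4x replicate 3 the counts were 189 the same way and 232 the opposite way.

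**Figure D2:**
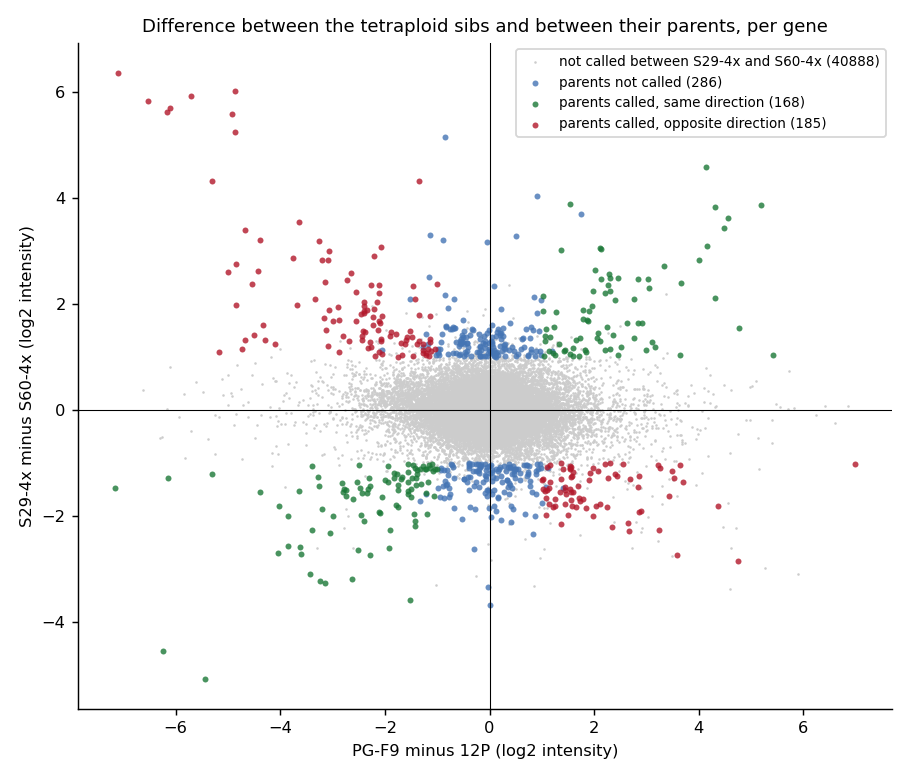
Each point is a gene, with its log2 difference PG-F9 minus 12P (x axis) and S29-4x minus S60-4x (y axis); colours mark the 639 genes called between S29-4x and S60-4x by the call between the parents. The 168 genes with the same direction and the 185 with the opposite one fill all 4 quadrants. For 286 genes the parents were not called, which does not show that they were equal. Of these, 123 had an unadjusted limma p under 0.05 between the parents.

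Of the 639 called genes, 447 had a sib difference that itself differed from the parental one in a fit of the 12 arrays of the 4 genotypes (limma adjusted p under 0.05 for the difference of the differences, which 20.2% of all genes passed). They included all 185 genes of the opposite direction, 215 of the 286 whose parents were not called, and 47 of the 168 with the same direction. The 185 had been chosen on these same arrays for calls of opposite sign, so that their passing was all but given and is no separate result. All 639 had been chosen for a large sib difference, so that nothing is read from their share beside that of all genes. Of those 47, the sib difference was smaller than the parental one in 42 and larger in 5. For the other 121 genes of the same direction no difference from the parental contrast passed the test, which does not show that both differences were equal. All 4 genotypes lay above background (the negative controls, defined with the on-or-off genes) in 323 of the 447, and in 15 of the 42. In the rest, a low group at background limits the size of a difference. Without S29-4x replicate 3, 592 of 837 genes passed.

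Each sib was then set against each parent. S29-4x was called against PG-F9 only and S60-4x against 12P only in 103 genes, and the reverse held in 99 genes. Most of these 202 genes were called between the parents: 43 and 50 in the same direction (higher in S29-4x and higher in S60-4x), and 62 and 36 in the opposite direction. The choice of sibs that differ, each called against a different parent only, all but gives such calls between the parents. That most were called is therefore no separate result. A sib lay outside both parents, called against each with the same sign, in 115 of the 639 genes, against 1.27% of all genes. S29-4x lay below both parents in 44 genes (0.373% of all genes did) and above both in 8 (0.272%), and S60-4x lay below both in 45 (0.4%) and above both in 18 (0.438%). The 639 genes had been chosen for a large sib difference, which sets a sib apart from parents that are alike. Nothing is therefore read from these counts beside the shares of all genes. There was no called gene in which both sibs lay outside both parents. Without S29-4x replicate 3, 149 called genes had a sib outside both parents, with S29-4x below both in 83.

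**Figure D3:**
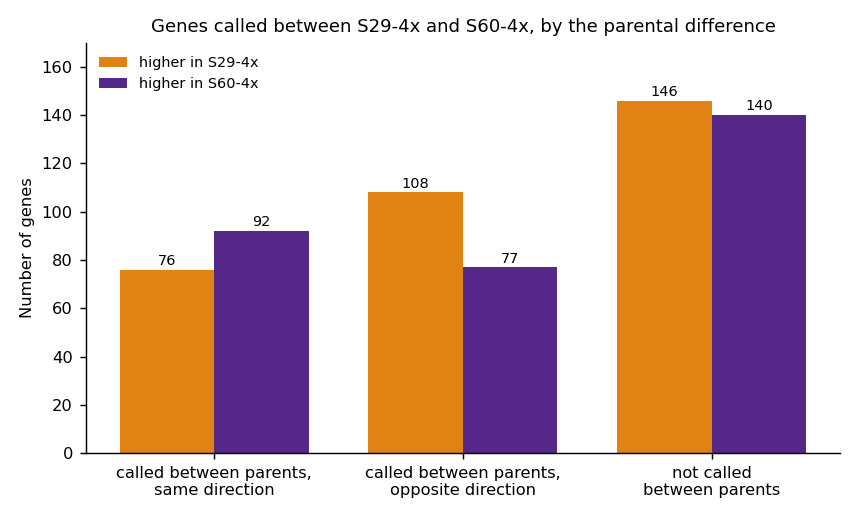
Number of genes called between S29-4x and S60-4x (y axis, bars from 0) by the call between PG-F9 and 12P (x axis), with genes higher in S29-4x to the left of genes higher in S60-4x. The 3 pairs of bars hold 76 and 92, 108 and 77, and 146 and 140 genes.

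Some differences were near an on-or-off kind, with the lower sib at background. A genotype was taken to lie at background for a gene when its mean was below the mean of the brightest negative control on each of its arrays (6.09 in S29-4x, 6.12 in S60-4x, 6.87 in PG-F9 and 6.29 in 12P), a limit set after the values had been seen. Of the 330 genes higher in S29-4x, S60-4x lay at background in 54 (16.4%), and of the 309 genes higher in S60-4x, S29-4x lay at background in 46 (14.9%). The higher sib was above background in 53 of the 54 and in 39 of the 46. In the other 8 both sibs lay at background, so that these genes were not on in either sib by this limit. Over all genes, 23.4% lay at background in S29-4x, 23.7% in S60-4x, 32.6% in PG-F9 and 25.6% in 12P. The difference exceeded 2 in 32 of these 100 genes and 4 in 4 of them. The counts moved with single arrays: without S29-4x replicate 3 they were 68 and 73, and over the fits that left out 1 array they ran from 29 (without S60-4x replicate 1) to 68 and from 17 (without S60-4x replicate 2) to 73. Of the 54 genes, 12P alone of the parents was above background in 22, PG-F9 alone in 16, both in 9 and neither in 7. Of the 46 genes, 12P alone was above background in 18, PG-F9 alone in 7, both in 9 and neither in 12. Over all genes 12P alone was above background in 8.04%, PG-F9 alone in 1.04%, both in 66.4% and neither in 24.5%, with the limit for background highest in PG-F9. Differences of such genes are limited in size by the background.

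TC173294, for which no function name was at hand, had the largest difference. Its log2 intensity was 12.69, 12.51 and 12.32 in S29-4x, against 5.86, 6.42 and 6.19 in S60-4x, and 5.27, 5.61 and 5.57 in PG-F9, against 12.44, 12.68 and 12.65 in 12P. S29-4x was called against the seed parent only and S60-4x against the pollen parent only, with a sib difference of 6.35 ± 0.172 (SE, adjusted p = 2.83e-05) and a parental difference of -7.10 (adjusted p = 5.01e-06). The mean was 12.55 in S48-4x, 12.43 in S8-2x and 11.58 in S16-2x, and 6.09 in S24-2x. The genes most like it over the 24 arrays were TC197059 (Pearson r = 0.986, difference 3.19) and NP7255335 (r = 0.971, difference 3.39), both also called.

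The next 4 genes had the same parental pattern and were unnamed too. TC177060 had log2 intensities of 13.21, 13.57 and 13.51 in S29-4x and 7.29, 7.58 and 7.41 in S60-4x, a difference of 6.0 ± 0.14 (adjusted p = 1.97e-05). Its parents had 8.94, 7.16 and 6.0 in PG-F9 and 11.93, 12.45 and 12.30 in 12P, and S29-4x was called above both parents. S48-4x and the diploid sibs lay between 13.04 and 14.02 in their means, so that S60-4x alone of the 6 hybrids was low. NP7255899 had 12.13, 12.35 and 12.15 in S29-4x and 7.13, 5.86 and 5.88 in S60-4x, a difference of 5.92 ± 0.334 (adjusted p = 6.53e-04). Again the other 4 hybrids were high, with means between 10.04 and 12.11, and PG-F9 was low at 6.25 ± 0.37, against 11.95 ± 0.15 in 12P (SD, n = 3 each).

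TC199604 and TC179843 split the hybrids another way. TC199604 had 11.65, 11.52 and 12.15 in S29-4x and 6.06, 6.08 and 5.71 in S60-4x (difference 5.82 ± 0.195, adjusted p = 7.09e-05). TC179843 had 11.60, 11.86 and 11.83 in S29-4x and 5.50, 6.59 and 6.14 in S60-4x (difference 5.68 ± 0.264, adjusted p = 2.64e-04). In both genes S16-2x, S24-2x and 12P were high and S48-4x, S8-2x and PG-F9 were low. Their correlation over the 24 arrays was 0.978, and each correlated with TC193108 at 0.988 and 0.987, a gene with a difference of 5.61. Whether such identifiers stand for the same transcript was not tested, and they are not counted as independent cases.

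On the S60-4x side the largest difference was that of TC191160, with no function name. It had 5.39, 5.32 and 5.77 in S29-4x, against 10.41, 10.6 and 10.67 in S60-4x, and 6.18, 6.67 and 5.44 in PG-F9, against 11.39, 11.54 and 11.69 in 12P. Every S29-4x array lay under its own highest negative control, so that the gene was at least 22.1-fold higher in S60-4x, with the controls in the place of S29-4x. The fitted difference was -5.06 ± 0.151 (adjusted p = 4.46e-05), and the parental one -5.45. TC178995 followed it over the 24 arrays (r = 0.983), with 5.81, 6.10 and 5.97 in S29-4x and 10.25, 10.80 and 10.48 in S60-4x, a difference of -4.55. Here the parental difference was -6.23. In both genes S29-4x and PG-F9 lay at background, so that both differences are limited by it and their sizes were not compared. Both genes were also low in S24-2x (means 5.35 and 5.82).

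The other 3 largest genes on that side were high in both parents. TC199154 had 4.96, 4.75 and 7.64 in S29-4x, against 9.51, 9.6 and 9.24 in S60-4x, and means of 9.59 in PG-F9 and in 12P (difference -3.67 ± 0.714, adjusted p = 0.0441). NP7258147 had 5.52, 5.47 and 7.99 in S29-4x, against 9.57, 9.76 and 9.68 in S60-4x (difference -3.34 ± 0.636, adjusted p = 0.0413), with 8.80 ± 0.17 in PG-F9 and 8.83 ± 0.26 in 12P (SD, n = 3 each). In both genes S29-4x replicate 3 lay between its 2 mates and S60-4x, and without it the differences were -4.60 (adjusted p = 3.81e-04) and -4.18 (adjusted p = 2.01e-04). Both lost the call when any single other array of the 2 sibs was left out. They also lost it with a replicate block, with low values floored and with robust and trended eBayes, settings given below. S8-2x was low for TC199154 too, at 4.78 ± 0.24 (SD, n = 3), while NP7258147 was high in all other genotypes. TC200367 had 5.19, 5.69 and 5.01 in S29-4x, against 8.83, 9.02 and 8.77 in S60-4x (difference -3.58 ± 0.187, adjusted p = 5.08e-04). It was at least 6.9-fold higher in S60-4x, S48-4x was as low as S29-4x at 5.39 ± 0.34 (SD, n = 3), and PG-F9 (8.28) and 12P (9.80) were both high. The only name at hand for it is Hunchback, a name given by similarity to a gene regulator of insects.

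**Figure D4:**
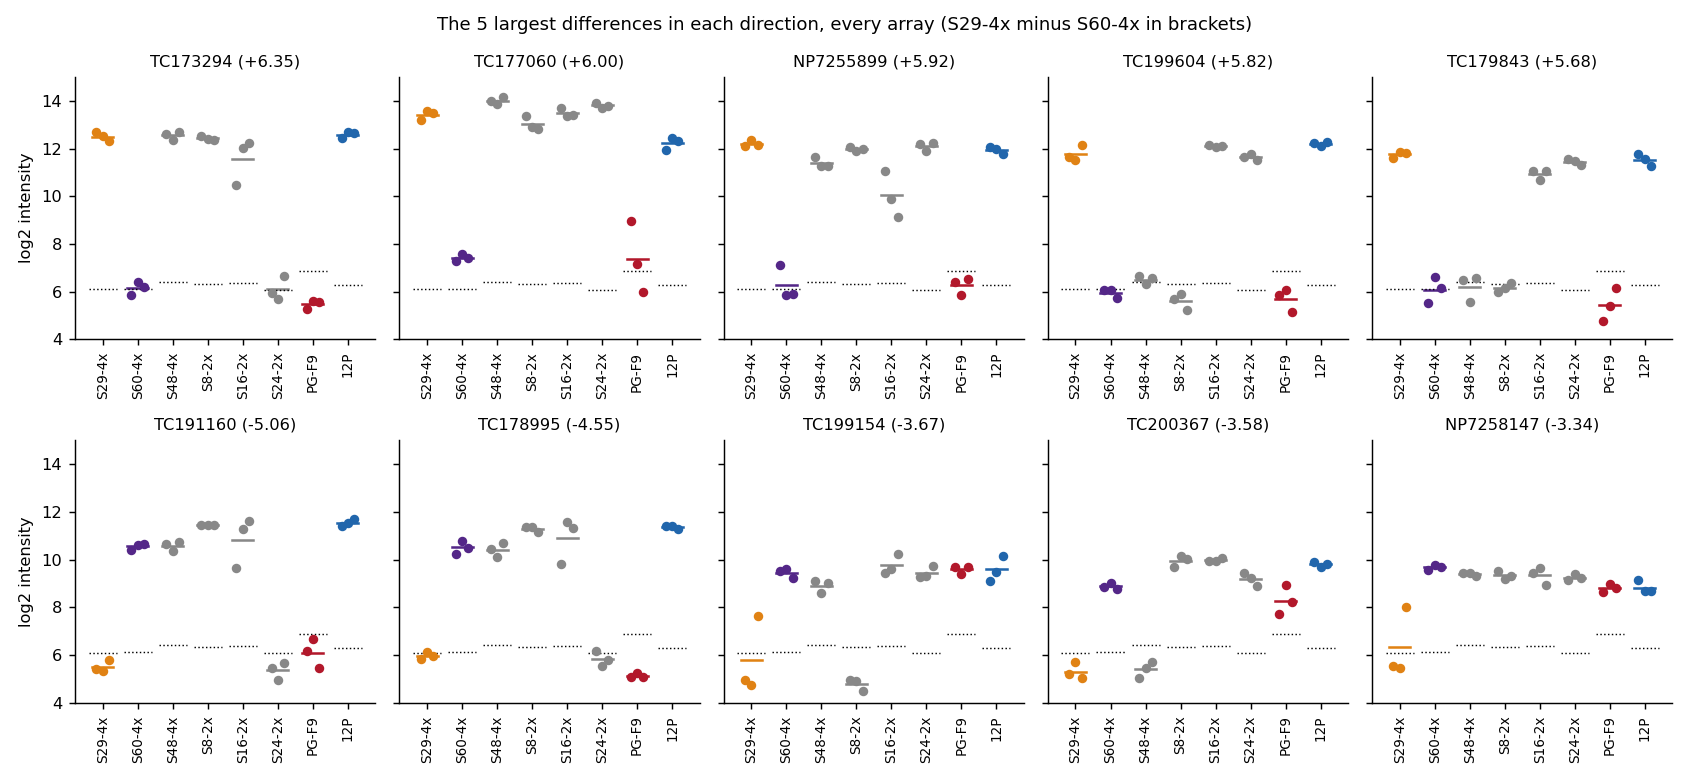
Log2 intensity (y axis) of the 5 genes with the largest positive (top) and negative (bottom) S29-4x minus S60-4x difference, in every array of the 8 genotypes (x axis); points are arrays, short lines are means and dotted lines are the mean highest negative control of the genotype. In TC199154 and NP7258147 one S29-4x array lies at 7.64 and 7.99, above its mates.

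Further genes show the 2 other parental relations. Of the genes that ran against the parents and were higher in S60-4x, TC182466 had 8.95, 7.84 and 9.85 in S29-4x, against 11.76, 11.68 and 11.72 in S60-4x, with 11.72 ± 0.21 in PG-F9 and 6.97 ± 0.37 in 12P (SD, n = 3 each). NP7269361 had 5.12, 6.22 and 7.06 in S29-4x, against 8.68, 9.19 and 8.76 in S60-4x, with 9.27 ± 0.38 in PG-F9 and 5.69 ± 0.45 in 12P. In both, S29-4x was called against PG-F9 only and S60-4x against 12P only, and both lost the call without any single S60-4x array. Where the parents differed by under 0.5, the largest gene of the S29-4x side was TC197649, with 13.72, 13.50 and 13.37 in S29-4x, against 10.25, 10.37 and 10.45 in S60-4x (difference 3.17 ± 0.127, adjusted p = 1.57e-04). Its mean was 13.05 in PG-F9 and 13.10 in 12P, and S60-4x was called below both. TC179237 had 8.78, 7.60 and 7.61 in S29-4x and 5.95, 5.38 and 5.65 in S60-4x, with every S60-4x array under its highest negative control, and was at least 3.68-fold higher in S29-4x. In all, 167 called genes had an uncalled parental difference under 0.5 in size.

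The third tetraploid did not side with either of the pair throughout. Over the 639 genes, S48-4x was called against S29-4x only in 152, against S60-4x only in 223, against both in 24 and against neither in 240. Its mean was nearer to S29-4x in 341 genes and nearer to S60-4x in 298. Among the 54 genes with S60-4x at background, S48-4x was above background in 35, and among the 46 with S29-4x at background in 18. The diploid sibs were mixed as well: of the 54 genes, 26 were above background in S8-2x, 30 in S16-2x and 29 in S24-2x, and of the 46 genes, 19, 28 and 35. Over all genes 72.9% were above background in S48-4x, 73.5% in S8-2x, 72.9% in S16-2x and 76.8% in S24-2x. In 44 of the 54 and 32 of the 46 genes, some but not all of these 4 hybrids were above background.

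Function names were at hand for 46 of the 639 genes, 20 higher in S29-4x and 26 higher in S60-4x. They come from the study's tables of genes that differed between parents and hybrids or between ploidy levels on these same arrays, which name 1019 genes, so that these genes were chosen for being variable: 79 of the 1019 (7.75%) were called between S29-4x and S60-4x. Of the 46, 16 ran with the parental difference, 13 against it, and 17 had parents that were not called. In each other setting in which they were tested, and without any single array, 9 of the 46 were still called: NP7263997, TC189613, TC184751, TC176562, TC193406, TC200367, TC197849, TC172620 and TC193654. TC189613 was not tested where the third of genes lowest in mean was left out. Each of the other 37 lost the call without at least 1 of the S60-4x arrays.

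The largest named difference on the S29-4x side was that of a kinase. NP7263997, similar to the CBL-interacting protein kinase CIPK21, a kinase of calcium signalling in Arabidopsis, had 10.07, 9.95 and 10.03 in S29-4x, against 7.49, 7.85 and 7.81 in S60-4x (difference 2.30 ± 0.128, adjusted p = 6.30e-04). PG-F9 (10.88 ± 0.20) was higher than 12P (7.83 ± 0.28, SD, n = 3 each) by 3.05, so that the gene ran with the parents. NP7270120, a pectinesterase, of the enzymes that remove methyl groups from cell wall pectin, had 10.55, 10.79 and 9.94 in S29-4x and 8.96, 8.46 and 8.55 in S60-4x (difference 1.77 ± 0.242, adjusted p = 0.016), while the parental difference was -1.13. TC189613, named for the nuclear pore protein Nup98, had 7.67, 7.76 and 7.57 in S29-4x and 5.76, 6.07 and 5.49 in S60-4x. Its difference of 1.89 ± 0.16 (adjusted p = 0.00314) ran against the parental -2.20, and all 3 diploid sibs were low, with means between 5.26 and 5.55.

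The gene lists below were cut from those 1019 names, so that their shares of called genes stand beside 7.75% for the named genes and 1.54% for all genes. Each list held at most 3 called genes, and nothing particular to a list is read from these counts. Of 20 genes of resistance and receptor-like proteins, which perceive pathogens and other signals, 2 (10%) rose in S29-4x and none was called higher in S60-4x. They were the leucine-rich repeat gene TC172517, with 8.87, 7.79 and 8.01 in S29-4x and 6.71, 6.30 and 6.71 in S60-4x (difference 1.64, adjusted p = 0.0318), and the S-receptor kinase TC194116 (difference 1.57, adjusted p = 0.0111). The list had a median difference of 0.30, against -0.001 over all genes. Of 14 genes on the protein kinase list, 1 rose and 2 fell (21.4% called, against 7.75% of the named genes). The list was cut by word and does not hold the kinases NP7263997 and TC194116, both called higher in S29-4x, so that its split is not that of all called kinases. The lectin-type kinase TC184751 had 7.79, 7.82 and 7.46 in S29-4x, against 6.2, 6.01 and 5.93 in S60-4x (difference 1.64 ± 0.14, adjusted p = 0.00317), and S29-4x lay between PG-F9 (8.91) and 12P (6.06). NP7271304 and TC193850 were lower by 1.48 and 1.02 (log2 -1.48 and -1.02), each against the direction of the parents.

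Lipid transfer proteins are small proteins that bind lipids and are made in surface tissues and seeds. Of the 6 genes on the list of lipid transfer and seed storage, 3 rose in S29-4x and none was called lower (50% called, against 7.75% of the named genes). The list's median was 1.35, with 5 of the 6 differences positive and the lowest at -1.15. TC200842 had 9.87, 8.83 and 9.54 in S29-4x, against 7.66, 7.30 and 7.52 in S60-4x (difference 1.92 ± 0.263, adjusted p = 0.016). TC174159 (difference 1.5, adjusted p = 0.0431) and TC173839 (difference 1.33, adjusted p = 0.0492) were called above both parents in S29-4x. Their values were alike, with 12.11, 11.36 and 11.87 against 11.77, 11.51 and 11.92 in S29-4x. In S60-4x they were 10.72, 9.74 and 10.37 against 10.97, 9.89 and 10.35. Whether they stand for the same transcript was not tested, and they are not counted as independent cases. The parents were not called in any of the 3. All 3 carry a joint name of lipid transfer, seed storage and trypsin-alpha amylase inhibitor proteins, with a pistil-specific extensin-like protein. Which of these they are was not tested. Without S29-4x replicate 3 the adjusted p was 0.0386, 0.0848 and 0.0967, so that of the 3 TC200842 alone kept its call, and it lost the call without any single S60-4x array (adjusted p between 0.0591 and 0.0794).

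Of 13 genes of F-box proteins and the ubiquitin system, which marks proteins for breakdown, 2 (15.4%) were called, against 7.75% of the named genes, and TC175195 (difference 1.36) and TC177842 (1.02) were higher in S29-4x. Without S29-4x replicate 3, TC175195 kept its call (1.12, adjusted p = 0.026) and TC177842 lost it (0.99, adjusted p = 0.073). The aquaporin TC176562, of the NIP type, which lets water and small solutes through membranes, had 12.92, 12.91 and 12.83 in S29-4x, against 11.55, 11.63 and 11.53 in S60-4x (difference 1.32 ± 0.0971, adjusted p = 0.00182). It was the 1 called member of 15 transporters (6.67%), a share near that of the named genes. Nodulins, first known from root nodules of legumes, were represented by TC193898 (early nodulin 10, difference 1.41) and TC190281 (difference 1.53), and S60-4x was below both parents in the second. Without S29-4x replicate 3 the adjusted p was 0.0134 for TC193898 and 0.065 for TC190281, which lost its call.

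Several named genes higher in S60-4x had parents that were not called, with S29-4x below both. The alternative oxidase TC201537, of the mitochondrial enzymes that pass electrons to oxygen past the cytochrome pathway, had 6.40, 6.75 and 6.0 in S29-4x, against 7.91, 8.11 and 7.85 in S60-4x (difference -1.57 ± 0.196, adjusted p = 0.0116). PG-F9 had 8.34, 9.01 and 8.92 and 12P 8.89, 8.99 and 8.67. A second alternative oxidase, TC201311, had a difference of -1.23 (adjusted p = 0.0209), with 6.68, 6.71 and 6.25 in S29-4x and 8.0, 7.84 and 7.48 in S60-4x. TC201537 and TC201311 had like means in the other genotypes too, such as 9.26 and 9.09 in S8-2x and 7.65 and 7.54 in S24-2x. Whether they stand for the same transcript was not tested, and they are not counted as independent cases. In both S29-4x was called below both parents and S60-4x against neither. The same held for the cytochrome P450 gene TC188536 (difference -1.25, adjusted p = 0.0455), the UDP-glucosyltransferase TC173958 (-1.34, adjusted p = 0.0395), the peroxidase TC176166 (-1.32, adjusted p = 0.00868) and WRKY53 TC179729 (-1.36, adjusted p = 0.0176). WRKY53 is a transcription factor known in Arabidopsis for its part in leaf senescence and defence, and P450 enzymes and UDP-glucosyltransferases modify small molecules by oxidation and by adding sugar.

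S29-4x was below both parents in 9 of the 26 named genes on this side, and in 8 of the 9 S60-4x was called against neither parent. Of the 6 genes just given, the alternative oxidase genes, the glucosyltransferase, the peroxidase and WRKY53 kept an adjusted p under 0.05 without S29-4x replicate 3 (between 0.0131 and 0.037), and the P450 gene did not (0.0838). Each of the 6 lost the call without at least 1 S60-4x array. The peroxidase TC187064, which ran against the parents, had 10.57, 10.96 and 11.47 in S29-4x, against 13.07, 12.74 and 12.73 in S60-4x (difference -1.85 ± 0.233, adjusted p = 0.0122). PG-F9 was at 13.72 ± 0.10 and 12P at 11.88 ± 0.18 (SD, n = 3 each). The FAD linked oxidase TC178125 had 6.92, 7.54 and 7.81 in S29-4x, against 9.57, 9.22 and 8.48 in S60-4x (difference -1.66, adjusted p = 0.0454). TC185997, similar to ATPases of the AAA type, had 5.91, 6.94 and 6.82 in S29-4x and 8.40, 9.32 and 8.13 in S60-4x (difference -2.06, adjusted p = 0.0373), and this gene and TC178125 lost the call whichever of the 6 arrays was left out.

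By list, 3 of 33 genes of detoxification and redox enzymes (the alternative oxidases, which are not independent cases, and the P450 gene) were higher in S60-4x. So were 2 of 9 defence genes (the peroxidases). None of either list was called higher in S29-4x, and the list medians were -0.16 and -0.23. These shares were 9.09% and 22.2%, against 7.75% of the named genes, to which the first is near. The 12 lipoxygenase genes, whose enzymes oxygenate fatty acids on the way to jasmonate and related compounds, all had negative differences, from -1.0 to -0.47, and none was called. Of these, 11 had an unadjusted limma p under 0.05, as had 8123 of all 41527 genes, and none had an adjusted p under 0.05. Between the parents none was called, and the list's median difference was -0.84. The list's median log2 intensity was 8.80, 9.46 and 9.94 in S29-4x, against 10.11, 10.53 and 9.79 in S60-4x, and S29-4x replicate 3 lay above S60-4x replicate 3. The 12 genes had a median pairwise correlation of 0.71 over the 24 arrays and are not independent cases.

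Heat shock proteins, which help other proteins fold, had 1 called member of 9 (11.1%, against 7.75% of the named genes). The Hsp70 gene TC172620 averaged 11.08 ± 0.10 in S29-4x, against 12.56 ± 0.17 in S60-4x (SD, n = 3 each, without overlap, difference -1.48 ± 0.126, adjusted p = 0.00317). It had 5.79, 5.54 and 5.24 in PG-F9 and 12.56, 12.54 and 12.92 in 12P. The parental difference of -7.15 was larger than that between the sibs (adjusted p = 6.27e-08 for the difference between them), and both sibs lay far above PG-F9, S60-4x at the level of 12P and S29-4x between the parents. The remaining hybrids were low, with means of 6.54 in S48-4x, 5.39 in S8-2x, 6.01 in S16-2x and 5.52 in S24-2x. DNA transposons are mobile elements that move by a transposase. NP7253187, NP7273710 and NP7271842, named for a transposase, a HAT dimerisation domain and a BED zinc finger, were lower in S29-4x by 1.04, 1.04 and 1.14 (log2 -1.04, -1.04 and -1.14), while PG-F9 exceeded 12P by 3.21, 3.64 and 3.50. Both sibs were called against 12P only in each of these. The genes were also alike in being high in S8-2x (means 9.93, 9.65 and 10.91) and low in S16-2x (6.85, 6.08 and 7.41). Whether they stand for the same element was not tested, and they are not counted as independent cases. Without S29-4x replicate 3, NP7253187 kept its call (-1.23), while NP7273710 (-0.88) and NP7271842 (-0.93) fell under the size threshold. Of the 16 genes on the list of transposable elements, NP7253187 was the 1 that was called (6.25%, near the share of the named genes), and the other 2 genes just given are not on the list and were picked after their values were seen.

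Other genes with a name included TC197849, named for the rice protein Os01g0764500, with 10.69, 10.56 and 10.71 in S29-4x, against 12.56, 12.68 and 12.69 in S60-4x (difference -1.99 ± 0.103, adjusted p = 5.08e-04), where PG-F9 was at 10.34 and 12P at 12.80. The list of 29 transcription factors had 1 called member (3.45%, against 7.75% of the named genes), WRKY53, and a median of -0.02. Outside the list, the MADS box genes TC178263 (difference 1.14, adjusted p = 0.0487) and TC200190 (-1.16, adjusted p = 0.0325) and the LOB domain gene TC199566 (1.13, adjusted p = 0.0345), also of families of transcription factors, were called. Without S29-4x replicate 3 the MADS box genes lost their calls (adjusted p = 0.0544 and 0.066) and TC199566 kept its own (0.0466). Of the 21 cell wall genes, the pectinesterase was the 1 called (4.76%). The glycosyltransferase and phenylpropanoid list had 1 of 22 (4.55%). No member was called among 10 photosynthesis genes, with 8 of the 10 differences positive and a median of 0.54, nor among 11 genes of helicases and DNA replication (median 0.44).

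**Figure D5:**
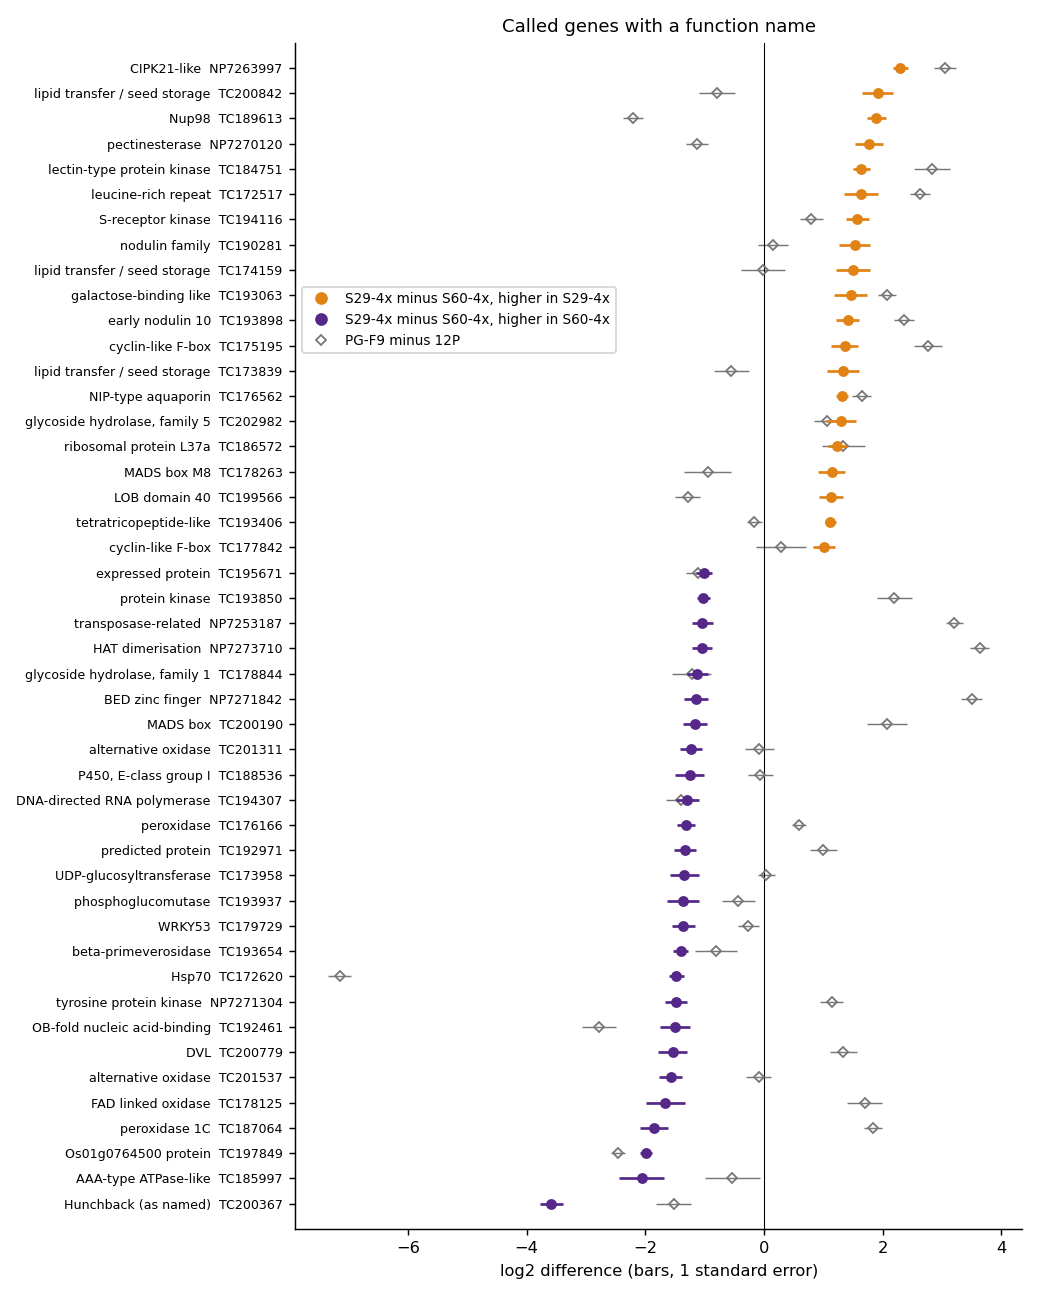
Log2 difference (x axis) of the 46 called genes with a function name (y axis, with their identifiers); filled circles are S29-4x minus S60-4x and open diamonds PG-F9 minus 12P, with bars of 1 standard error. Of the 46 genes, 16 have both differences called on the same side of 0, 13 on opposite sides and 17 have parents that were not called.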

How the data were processed

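The authors labelled leaf RNA with a single dye, hybridized it to NimbleGen arrays, quantile normalized the values between arrays and brought the probes of a gene together by RMA. The deposited intensity values are on a linear scale, 1 for each of 41538 entries and 24 arrays. Here the 11 entries for negative controls were dropped and log2 of the rest was taken, with no pseudocount and no filter. Genotypes were tested with limma (version 3.58.1, under R 4.3.3; lmFit, then eBayes with no trend), unpaired, in a separate fit of the 6 arrays compared (12 for the difference of the sib and parental differences), with Benjamini-Hochberg adjustment over all 41527 genes. The methods of the study name limma and unpaired contrasts of grouped genotypes and of pairs of single genotypes, S29-4x against S60-4x among them. They do not say which arrays entered a fit of 2 single genotypes, so that a fit of all 24 arrays was an alternative. The test was tried on simulated data. The precision is limited by 3 arrays per genotype. The members and the gene lists were chosen with earlier results of these data known.

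Genes named are, among called genes whose arrays did not overlap, the 5 largest in each direction, the 6 largest in each direction with a function name, the 2 largest in each direction that ran against the parents, the 2 largest in each direction with a parental difference under 0.5 and an adjusted p over 0.05, and called members of the gene lists. Other genes in the text, among them those for DNA transposons, nodulins, MADS box and LOB domain proteins, were picked after their values were seen. The probe identifiers (TC and NP) matched 0 entries of the reference gene table, so names were taken from the tables of the study, which name 1019 genes. Plots were drawn with matplotlib 3.10.9.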

Additional observations from a re-analysis of the deposited data

How the results depend on the processing

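Each result was recomputed after quantile normalizing again, after median centring, without the third of genes lowest in mean, without genes under the negative controls in both groups, with values floored at percentile 5, with robust and trended eBayes, with a replicate block, without the size threshold, with 1 fit of all 24 arrays, and without each array in turn. Of 195 counts so obtained, 147 were within 1.5 times the count given, and no log2 difference of a gene named by function or rule changed sign. Of the 25 genes named by the rule, 13 were called under every alternative in which they were tested, and of the 46 with a function name, 9 (TC189613, in both, was not tested without the genes lowest in mean). Of the 225 recounts of called list members, 62 moved by over 1.5 times. Without the threshold on the log2 difference, 1423 genes were called between S29-4x and S60-4x, 700 higher in S29-4x and 723 higher in S60-4x, with 9099 between the parents, 2026 between S29-4x and S48-4x and 2497 between S48-4x and S60-4x. Of the 1423, 362 ran with the parents, 384 against them and 677 had parents not called, 900 differed from the parental difference and 403 had a sib outside both parents.

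Leaving out 1 array gave 261 to 837 calls between S29-4x and S60-4x, 172 to 364 higher in S29-4x and 89 to 473 higher in S60-4x, the lowest without S60-4x replicate 2 and the highest without S29-4x replicate 3. The share of calls higher in S29-4x was 51.6% with all arrays, 43.5% without S29-4x replicate 3, and 65.9%, 62.8% and 65.6% without S60-4x replicates 2, 1 and 3. The calls between the parents were 4049 to 4774. The genes with the parental direction were 75 to 189, those against it 89 to 232, those with parents not called 97 to 416, those that differed from the parental difference 184 to 592, and those with a sib outside both parents 45 to 149. Between S29-4x and S48-4x the range was 768 to 1340, and between S48-4x and S60-4x 892 to 1570.

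With the replicate block, 546 genes were called between S29-4x and S60-4x, 492 of them among the 639, the genes with a sib outside both parents were 70, and 647 were called between S29-4x and S48-4x. The replicate numbers were not taken to pair the arrays: the residual correlation of S29-4x and S60-4x arrays of the same number was 0.163, 0.0694 and 0.209 for numbers 1, 2 and 3, and over the 4 genotypes it averaged -0.036 for the same number and 0.0179 for other numbers. Each of the 6 arrays of S29-4x and S60-4x had its highest residual correlation with the array of its own number in the other sib, which is a hint from the data and not from the design.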

Other observations

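Some genes with a large difference between S29-4x and S60-4x, picked after their values were seen, had parents that were both well above background. NP7271521 averaged 11.89 in S29-4x and 6.75 in S60-4x on the log2 scale, with 10.52 in PG-F9 and 11.37 in 12P, and S48-4x was at 12.02. TC180780 averaged 10.65 in S29-4x and 6.33 in S60-4x, with 9.60 in PG-F9 and 10.95 in 12P. TC177357 averaged 11.16 in S29-4x and 7.13 in S60-4x, with 11.69 in PG-F9 and 10.79 in 12P. In these 3 genes S60-4x was low while both parents and S29-4x were high. On the S60-4x side, NP7256296 averaged 5.79 in S29-4x and 7.87 in S60-4x, with 7.91 in PG-F9 and 7.69 in 12P, and S48-4x was as low as S29-4x at 5.55. This gene followed TC200367, described above, over the 24 arrays (Pearson r = 0.934) and is not counted as a case independent of it.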
